A study of Homo sapiens with 6 samples.

Results

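The replication-dependent histone genes were compared between control and sevoflurane (Sev)-treated U251 cells. Members were the protein-coding genes with symbols of the forms H1-1 to H1-6, H2AC, H2BC, H3C and H4C, which replaced the older names HIST1H, HIST2H, HIST3H and HIST4H. They numbered 69 of the 61496 features in the count table. There were 6 genes for the linker histone H1, 17 for H2A, 18 for H2B, 13 for H3 and 15 for H4. The HIST1 cluster on chromosome 6 held 55 of them, the HIST2 cluster on chromosome 1 held 11, the HIST3 cluster on chromosome 1 held 2, and HIST4 on chromosome 12 held 1. U251 is an established human glioma cell line, and Sev is an inhaled anesthetic. RNA was sequenced in 3 libraries labelled control, without treatment, and 3 labelled as given Sev gas over 2 h. The labels of the single libraries give no Sev concentration, while the deposited protocol lists several, and the study's text ties its sequencing to the highest. Ribosomal RNA was depleted before sequencing, so RNA without a poly(A) tail could be captured.

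Histone octamers of H2A, H2B, H3 and H4 wrap DNA into nucleosomes, and H1 binds the linker DNA between them. Replication-dependent genes supply these proteins in S phase, when newly made DNA is packaged. Their mRNAs mostly lack introns and a poly(A) tail, and end instead in a conserved stem-loop that is bound by SLBP. They are transcribed together at a nuclear body that holds NPAT and the U7 ribonucleoprotein, and they are degraded when replication stops.

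The mRNA ends of these genes are what sets them apart from most transcripts. Of the 67 members with a transcript in GENCODE 29, 31 held a stem-loop of 16 bases in the annotated sequence. Many of the other annotated transcripts hold the coding sequence only, so the letters could not be looked for there. The stem-loops found are shown 5′ to 3′ as DNA, with the 4 bases of the loop in capitals.

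stem-loop of 17 members: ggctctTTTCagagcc

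stem-loop of 5 members: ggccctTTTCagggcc

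stem-loop of 4 members: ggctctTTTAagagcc

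stem-loop of 3 members: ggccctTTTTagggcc

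Another 2 forms were each held by 1 member.

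RefSeq promoters, from 250 bases before to 50 after the start, were found for 64 of the 69 members, which gave 68 windows. Windows were searched on both strands for TATAAA (the TATA box), CCAAT (the CCAAT box) and ATTTGCAT (the octamer bound by OCT1). TATAAA was in 66.2% of the windows of members and 11.5% of the 35097 promoters of all genes. CCAAT was in 85.3% against 34.6%, and was in 100% of the H1, H2A, H2B and H3 windows but 23.1% of the H4 windows. ATTTGCAT was in 39.7% against 1.77%, with 68.8% of the H2A windows and 75% of the H2B windows. The promoters of the 3 members with even replicates that fell more than 2-fold, and of the only member called higher, are shown on GRCh38.p14 with these motifs in capitals.

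H2AC6, chr6:26123922-26124221, plus strand: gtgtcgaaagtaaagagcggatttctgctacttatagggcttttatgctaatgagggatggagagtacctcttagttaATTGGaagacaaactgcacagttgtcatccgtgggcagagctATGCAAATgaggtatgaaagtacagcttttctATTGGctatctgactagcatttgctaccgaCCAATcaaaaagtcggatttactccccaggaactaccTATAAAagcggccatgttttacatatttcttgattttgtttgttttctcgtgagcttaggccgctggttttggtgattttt

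H1-3, chr6:26234938-26235237, minus strand: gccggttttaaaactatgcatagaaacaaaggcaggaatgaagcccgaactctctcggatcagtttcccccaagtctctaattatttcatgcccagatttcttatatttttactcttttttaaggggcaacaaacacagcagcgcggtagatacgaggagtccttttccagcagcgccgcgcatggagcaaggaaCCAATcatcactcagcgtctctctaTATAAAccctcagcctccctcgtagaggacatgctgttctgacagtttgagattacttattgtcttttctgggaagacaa

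H3C3, chr6:26045134-26045433, plus strand: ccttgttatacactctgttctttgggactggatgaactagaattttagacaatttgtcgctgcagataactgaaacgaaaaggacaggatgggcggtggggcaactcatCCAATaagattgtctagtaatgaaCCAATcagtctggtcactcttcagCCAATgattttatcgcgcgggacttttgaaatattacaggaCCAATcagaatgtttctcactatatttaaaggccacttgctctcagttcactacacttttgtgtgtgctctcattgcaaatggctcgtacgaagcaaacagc

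H2BC12, chr6:27146809-27147108, minus strand: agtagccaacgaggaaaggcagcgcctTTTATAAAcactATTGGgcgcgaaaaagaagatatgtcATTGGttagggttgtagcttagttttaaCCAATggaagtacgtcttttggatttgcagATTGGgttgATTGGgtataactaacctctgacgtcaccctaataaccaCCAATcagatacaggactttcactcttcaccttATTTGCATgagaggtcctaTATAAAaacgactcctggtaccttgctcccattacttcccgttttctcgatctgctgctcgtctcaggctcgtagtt

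The window of H2AC6 holds 1 TATAAA, 3 CCAAT and 1 octamer match, and that of H2BC12 holds 3, 6 and 1. In H2BC12 the stretch TTTATAAA holds a TATAAA match on each strand, and both are counted. A second RefSeq window of H2BC12, chr6:27146806-27147105, holds the same numbers of matches. H1-3 has 1 TATAAA and 1 CCAAT match, and H3C3 has 4 CCAAT matches and neither of the other motifs. Such matches are descriptions of the letters and do not show that a factor was bound.

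The libraries held 38624292 to 46318311 counts, and the members took 0.391% to 0.66% of them. Between replicates, 50.5% to 68% of 13668 abundant genes varied past what sampling of reads gives, so no pair of files looked like a single library, though repeat preparations of a culture cannot be told from separate cultures this way. The labelled cell type was checked against its markers. Of 12 glial and glioma markers, 10 passed the expression filter, among them VIM, NES, GFAP and SOX2, while AQP4 and CHI3L1 did not pass. Of these 10, SOX2, S100B and PTPRZ1 were lower after Sev, with log2 fold changes of -0.72, -1.10 and -0.63, and CD44 and EGFR were higher, with 0.97 and 0.27. Immune markers summed to between 2.3 and 5.46 CPM (counts scaled to the library's size) over all libraries, with CD3E at 0 in each. Epithelial markers summed to 27.8 to 29 CPM in the control and 31.9 to 39.2 CPM in the Sev libraries, mostly from KRT18 and KRT8, with KRT5 and EPCAM at no more than 5 counts. Neuron markers summed to 73.2 to 106 against 134 to 145 CPM, mostly from TUBB3, and endothelial markers to 38.5 to 41.4 against 49.2 to 64.1 CPM, mostly from KDR. Their part in the histone results was not tested.

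Of the tested histone genes, about 1 in 3 passed the test as lower after Sev, and few fell by a large amount. Of the 69 members, 59 passed the expression filter and were tested, and the other 10 had at most 15 counts in any library. The log2 fold change, Sev over control, was below 0 for 42 of the 59 members and above 0 for 17, beside 50.3% of all features below 0 (58.3% when scaled to library size alone). Members had a median log2 fold change of -0.25, against a median of -0.01 over all 27514 tested features. The adjusted p-value was under the limit of 0.05 (edgeR quasi-likelihood test, Benjamini-Hochberg) for 19 members that were lower, 32.2% of those tested, beside a background of 21.5% of all features. The share of members lower depended on single libraries. It was 16.9% without control 2, control 3 or Sev 2, beside 17.8%, 15.6% and 19.3% of all features. Without control 1 it was 44.1%, beside 16%. A single member, H2BC12, was higher by the adjusted p-value in the main fit, beside a background of 22.1%. By the threshold of a fold over 2 with an unadjusted p-value under 0.05, 4 members were lower, beside 12% of all features, and 0 were higher, beside 11.4%. All 3 Sev libraries lay below all 3 control libraries for 16 members, a share close to the 28.2% of all features, and above them for 1, beside 28.3%. The groups overlapped for the remaining 42. Scaling to library size alone moved the median of all features to -0.15, so directions near 0 depend on the scaling.

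**Figure D1:**
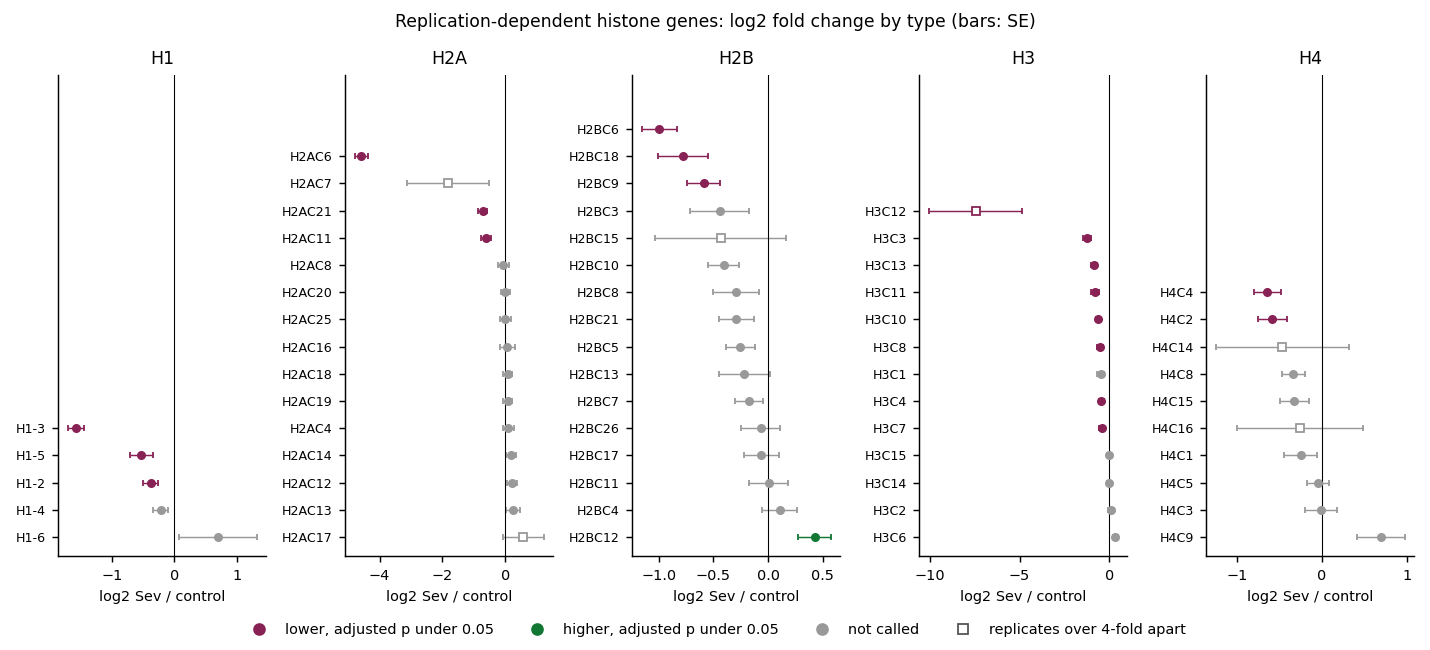
Log2 fold change (Sev over control, horizontal axis, scale differs by panel) with its standard error for the 59 tested members, 1 panel per histone type. H1 and H3 have most of their tested members in the called colour, most H2A genes lie near 0, and H2AC6 is far to the left. Open squares mark the 6 members whose replicates differed over 4-fold, H3C12 among them.

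The shift differed in size between the histone types when all counts of a type were summed. A sum does not depend on how reads were split between copies of the same type, but where the reads of equal copies were entered for both, the sum holds them more than once. With such copies entered once, the log2 ratio was -0.08 for the H2A sum, -0.39 for the H3 sum and -0.25 for the sum of all members. In addition, H2AC17 and H3C12 overlap across types. Without the 6 members with uneven replicates, the H3 log2 ratio went from -0.34 to -0.28 and that of H2A from -0.04 to -0.08. Summed H1 counts were 411, 556 and 540 CPM in the control and 384, 336 and 402 CPM in the Sev libraries. H1 was the single type whose groups did not overlap, and its mean was 25.6% lower with Sev. For H3, whose tail carries many histone marks, the sums were 903, 1405 and 1229 against 996, 846 and 946 CPM, 21.2% lower. H4, its partner in the tetramer, gave 800, 1403 and 1266 against 918, 853 and 982 CPM, 20.7% lower. Control 1 lay within the range of the Sev libraries for H3 and below it for H4, and controls 2 and 3 lay above it in both. The H4 sums hold the uneven H4C14, low in library 1 of both groups. H4C14 had 27.4, 251 and 218 CPM in the control and 35.2, 143 and 182 CPM in the Sev libraries. Without control 1 the log2 ratios of H3 and H4 went from -0.34 and -0.33 to -0.51 and -0.55, and without control 2 to -0.20 and -0.18. H2B summed to 1175, 1582 and 1483 against 1283, 1097 and 1385 CPM, 11.2% lower. H2A summed to 1113, 1493 and 1494 against 1395, 1139 and 1445 CPM, 2.92% lower. These groups overlapped. The H2B log2 ratio of -0.17 was -0.30 without control 1, -0.09 without control 2 and -0.08 without Sev 2, and the H2A log2 ratio of -0.04 was -0.18 without control 1 and -0.11 without Sev 3, and turned to 0.02 without control 2, 0.02 without control 3 and 0.06 without Sev 2. All members together summed to 4402, 6438 and 6012 against 4976, 4272 and 5161 CPM, a log2 ratio of -0.23 that overlapped between groups. It was -0.38 without control 1, -0.12 without control 2 and -0.15 without Sev 2. In bulk RNA, fewer cells in S phase and less histone RNA per cell cannot be told apart. Scaled to library size alone, the log2 ratios were -0.18 for H2A, -0.31 for H2B and -0.36 for all members, and from summed FPKM they were -0.53 for H3, -0.53 for H4 and -0.08 for H2A. The sums carry no test.

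Linker histone genes fell most clearly at H1-3. Of the 5 tested H1 genes, 3 were lower by the adjusted p-value (60%, beside 21.5% of all features) and 0 higher, with a median log2 fold change of -0.38. H1-3 (ENSG00000124575) lies at chr6:26234268-26234933 on the minus strand. Its CPM was 33.4, 37.7 and 36.3 in the control and 12.5, 10.2 and 13.5 in the Sev libraries. The groups were far apart, and the log2 fold change was -1.57 ± 0.13 (SE), 2.97-fold lower, with an adjusted p-value of 0.000156. H1-2, among the most abundant H1 genes, had 148, 185 and 191 against 139, 122 and 142 CPM. It fell by 0.38 on the log2 scale (SE 0.12, adjusted p = 0.0323), and all Sev libraries lay below all controls by a small margin. H1-5 had 109, 178 and 150 against 106, 85.8 and 111 CPM, with a log2 fold change of -0.53 (adjusted p = 0.0461) and overlapping groups. Of 17 alternative settings, H1-3 was called lower in 17, H1-2 in 8 and H1-5 in 6. H1-4, which had 121, 155 and 162 against 125, 117 and 135 CPM, did not pass (log2 fold change -0.21 ± 0.12, adjusted p = 0.184), though without control 1 it was -0.34 (adjusted p = 0.0269) and scaled to library size alone -0.35 (adjusted p = 0.0457). The testis gene H1-6 was under 0.5 CPM in every library. H1-1 had too few counts to be tested.

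Among members with even replicates, the largest single change was in an H2A gene, next to many small differences. Of 15 tested H2A genes, 3 were lower (20%, close to the share among all features), 0 were higher, and the median log2 fold change was 0.07. H2AC6 (ENSG00000180573, chr6:26124145-26139116, plus strand) had 62.7, 92.2 and 76.5 CPM in the control and 2.73, 4.05 and 2.9 CPM in the Sev libraries. Read counts were 2654, 3654 and 3715 against 103, 152 and 115, so the lowest control was far above every Sev library. H2AC6 fell 23.9-fold (log2 fold change -4.58 ± 0.21, adjusted p = 2.5e-05). H2AC21 of the HIST2 cluster had 29.5, 42.7 and 40.3 against 24.3, 22 and 22.2 CPM, and fell by 0.72 on the log2 scale (SE 0.15, adjusted p = 0.00596). H2AC11 had 82.3, 124 and 115 against 76.2, 61.1 and 75 CPM, and fell by 0.60 (SE 0.16, adjusted p = 0.0193). In both, all Sev libraries lay below the controls. The most abundant H2A genes did not pass. H2AC18 and H2AC19, whose counts differed by no more than 12 in any library, each had 231 to 312 CPM in the control and 263 to 320 CPM in the Sev libraries, with a log2 fold change of 0.08 ± 0.14. They are near-identical copies and count as 1 measurement. H2AC20 had 150, 211 and 190 against 191, 154 and 208 CPM, with overlapping groups and a log2 fold change of 0.00 ± 0.15. Log2 fold changes of H2AC4, H2AC12, H2AC13, H2AC14, H2AC16 and H2AC25 lay between 0.01 and 0.26 with overlapping groups.

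H2B genes included the single member called higher. Of 16 tested, 3 were lower (18.8%, below the 21.5% of all features) and 1 higher, and the median log2 fold change was -0.27. H2BC12 had 147, 206 and 178 CPM in the control and 233, 205 and 274 CPM in the Sev libraries. The groups overlapped narrowly at control 2 and Sev 2, and the log2 fold change was 0.43 ± 0.15 (adjusted p = 0.048). H2BC12 was called higher in 7 of 17 alternative settings. H2BC6, a gene of low abundance, had 5.39, 6.71 and 6.92 against 3.05, 3.19 and 3.28 CPM. It fell by 0.997 on the log2 scale (SE 0.16, adjusted p = 0.00214), with tight and separate groups. H2BC18 of the HIST2 cluster had 200, 293 and 256 against 170, 97.5 and 169 CPM, and fell by 0.78 (SE 0.23, adjusted p = 0.0252). H2BC9 had 68.9, 99.6 and 85.9 against 58.5, 49.2 and 61.1 CPM, and fell by 0.59 (SE 0.15, adjusted p = 0.0135). Both had all Sev libraries below the controls, Sev 2 lowest. So had H2BC10, at 76.9, 116 and 96.4 against 75, 67.8 and 75.1 CPM, but its adjusted p-value of 0.0509 missed the limit. The abundant H2BC4 and H2BC17 had log2 fold changes of 0.11 ± 0.16 and -0.06 ± 0.16 with overlapping groups, and that of H2BC11 was 0.01 ± 0.18.

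H3 genes had the highest share of calls among the core histones. Of 13 tested, 8 were lower (61.5%, beside 21.5% of all features) and 0 higher, with a median log2 fold change of -0.49. H3C3 (ENSG00000287080) had 38.1, 67.8 and 57.3 CPM in the control and 24.4, 20.6 and 23.8 CPM in the Sev libraries. It was 2.37-fold lower (log2 fold change -1.25 ± 0.20, adjusted p = 0.00211), and the controls varied more than the Sev libraries. H3C13 of the HIST2 cluster had 47, 57.7 and 65 against 36.1, 25.5 and 31.5 CPM, and fell by 0.87 on the log2 scale (SE 0.16, adjusted p = 0.00394). H3C10 had 74.5, 100 and 105 against 64.1, 56.4 and 60.1 CPM, and fell by 0.63 (SE 0.13, adjusted p = 0.00716). Both genes had separate groups. H3C4, H3C7, H3C8 and H3C11 were also lower, with log2 fold changes between -0.81 and -0.43. H3C4 shares 411 bases of its exons on the same strand with the readthrough gene ENSG00000282988, and how reads were assigned there was not given in the sources used here. The eighth call, H3C12, came from 1 library and is described with the uneven members. H3C2, the most abundant H3 gene by CPM, had 146, 220 and 202 against 207, 185 and 215 CPM, and did not pass (0.10 ± 0.15). H3C14 and H3C15, whose counts differed by no more than 2 in any library, stood at -0.03 ± 0.12 and count as 1 measurement. H3C6 had 13.3, 14.1 and 12.4 against 19.6, 14.1 and 16.7 CPM (0.34 ± 0.14, adjusted p = 0.0941), though its adjusted p-value was 0.0319 without Sev 2.

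Most H4 genes encode the same protein. Of the 10 H4 genes tested, 2 were lower (20%, close to the 21.5% of all features), with 0 higher and a median log2 fold change of -0.29. H4C4 had the highest length-scaled level of all members in the control, at 499 ± 101 FPKM, a count scaled to gene length and library size (SD, n = 3). Its CPM was 140, 220 and 190 in the control and 129, 107 and 116 in the Sev libraries, all Sev values being below the controls. H4C4 fell by 0.64 on the log2 scale (SE 0.16, adjusted p = 0.0143). H4C2 had 112, 175 and 168 against 112, 88.5 and 103 CPM, with control 1 and Sev 1 level, and fell by 0.59 (SE 0.17, adjusted p = 0.0267). H4C8 had 192, 266 and 249 against 205, 173 and 184 CPM (-0.33 ± 0.13, adjusted p = 0.072), but -0.47 without control 1 (adjusted p = 0.0121), and H4C5 had a log2 fold change of -0.04 ± 0.13. The low-abundance H4C9 had 1.99, 1.19 and 1.09 against 2.02, 2.13 and 2.75 CPM, the single member with all Sev libraries above the controls, and did not pass (0.70 ± 0.28, adjusted p = 0.0775), though without control 1 its adjusted p-value was 0.0225.

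**Figure D2:**
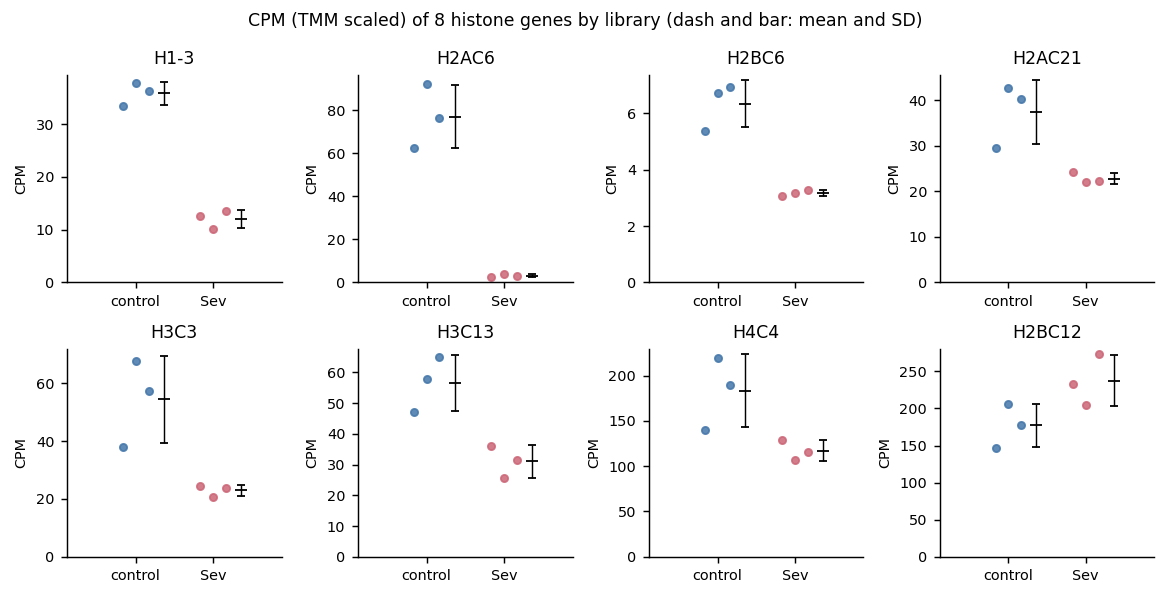
CPM of 8 members by library (vertical axis from 0, scale differs by panel), with mean and SD of the 3 libraries of each group. The first 7 fell, with all Sev points below the control points, and H2BC12 rose with groups that overlap at 206 and 205 CPM.

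The makeup of each type was described by the share of a gene in the counts of its type, over members with even replicates. Shares divide out a level common to a whole library, such as the low control 1, but those of a type sum to a fixed total. Of 53 shares, all Sev libraries lay below the controls for 17 and above them for 17, and 19 overlapped. By CPM, 28.2% and 28.3% of all features were separated in this way. H1-3 took 7.21% ± 0.80 (SD, n = 3) of H1 counts in the control and 3.21% ± 0.16 with Sev, while H1-4 took 29.1% ± 1.11 and 33.7% ± 1.11. H2AC6 went from 6.15% ± 0.41 to 0.281% ± 0.10 of H2A counts, and H2AC12 from 7.46% ± 0.26 to 9.18% ± 0.37. Among H2B genes, H2BC18 went from 18.3% ± 0.39 to 11.8% ± 2.05 and H2BC12 from 13% ± 0.33 to 19.5% ± 0.88. H3C3 went from 4.76% ± 0.60 to 2.47% ± 0.04 and H3C2 from 16.7% ± 0.77 to 21.8% ± 0.97 of H3 counts. H4C4 went from 18.5% ± 0.63 to 14.8% ± 0.31 and H4C3 from 12.4% ± 0.90 to 15.3% ± 1.07 of H4 counts. In each of these 10 genes the groups did not overlap.

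**Figure D3:**
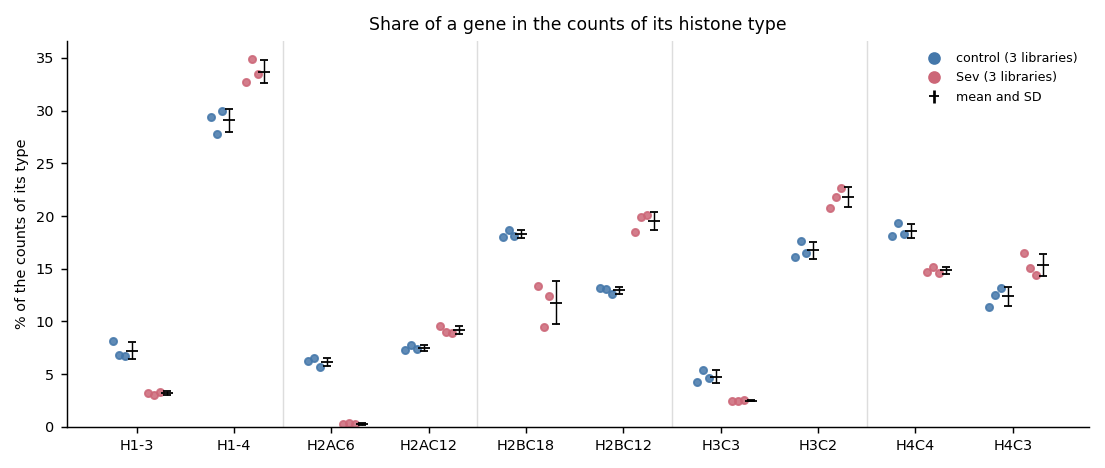
Share of 10 members in the counts of their histone type (vertical axis, percent), 1 point per library, with mean and SD of the 3 libraries of a group; grey lines part the types. Each type has a member with a smaller share after Sev on the left and one with a larger share on the right.

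By position, calls lay in both large clusters, beside 21.5% of all features lower and 22.1% higher. In HIST1, 16 of 45 tested members (35.6%) were lower and 1 higher, and in HIST2, 3 of 11 (27.3%) were lower. The 2 HIST3 genes and the HIST4 gene were not called. HIST1 falls into 2 blocks on GRCh38, chr6:25726132-26285638 and chr6:27125897-27893843. In the first, 11 of 29 tested members (37.9%) were lower and 0 higher, with a median log2 fold change of -0.38. In the second, 5 of 16 (31.2%) were lower and 1 higher, with a median of -0.03. Members with annotated exons under 700 bases had 10 of 29 (34.5%) lower and 1 higher, and longer ones 8 of 28 (28.6%) lower, with medians of -0.25 and -0.27. The uneven H3C12, whose call came from control 2 alone, is counted among the calls of HIST1, its second block and the longer exons.

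H2A and H2B genes often face away from each other and share a promoter. GENCODE 29 has 11 such pairs among the members, with starts 219 to 331 bases apart. H2AC6 and H2BC4 are 219 bases apart, and their RefSeq windows share 255 of 300 bases. While H2AC6 fell 23.9-fold, H2BC4 had 110, 164 and 155 against 163, 133 and 167 CPM, with overlapping groups and a log2 fold change of 0.11 ± 0.16 (adjusted p = 0.615). In the pair H2AC11 and H2BC11 the first fell by 0.60 on the log2 scale, and the second stood at 0.01 ± 0.18 (adjusted p = 0.979). In the pair H2AC12 and H2BC12 the values were 0.21 ± 0.17 and 0.43 ± 0.15, and H2BC12 alone passed. In the other 8 pairs no tested member was called, and H2AC1, H2BC1 and H2BC14 were not tested. The difference between partners was not tested.

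**Figure D4:**
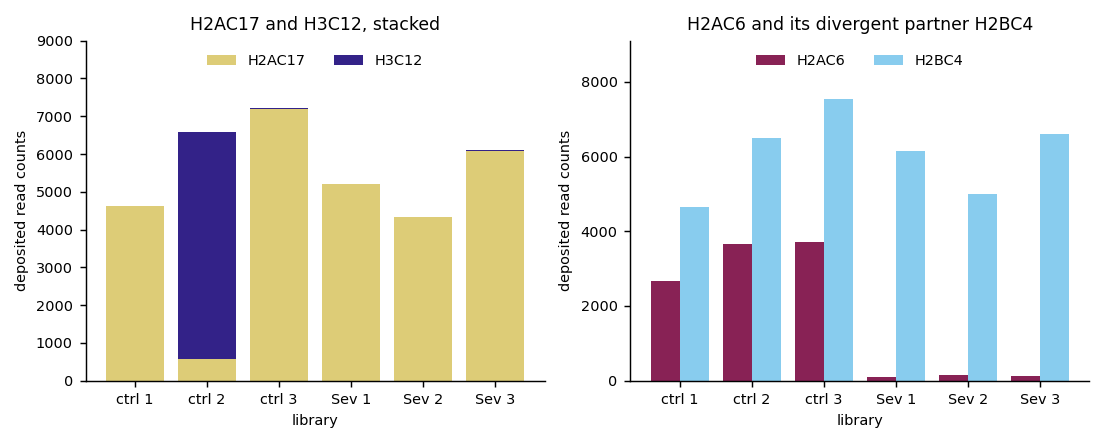
Deposited read counts per library (vertical axes from 0). Left, H2AC17 and H3C12 stacked, which together stay between 4335 and 7213 counts while control 2 assigns 6020 of its 6589 to H3C12. Right, H2AC6, at most 152 counts in Sev, beside its divergent partner H2BC4.

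For 6 members the replicates of a group differed over 4-fold at 100 or more counts, namely H2AC7, H2AC17, H2BC15, H3C12, H4C14 and H4C16. H3C12 had 2, 6020 and 8 counts in the control and 16, 6 and 11 in the Sev libraries, so its log2 fold change of -7.45 (adjusted p = 0.0497) came from control 2 alone and was 1.38 without it. H2AC17 had 4611, 569 and 7205 against 5195, 4329 and 6090 counts, low in the same library. The exons of these genes overlap by 346 bases on the same strand, and the sum of their counts was 4613, 6589 and 7213 against 5211, 4335 and 6101, a log2 ratio of -0.06. H4C14, which shares a run of 1547 bases with H4C15, had 1161, 9941 and 10603 against 1325, 5370 and 7206 counts, low in library 1 of both groups. H2AC7 had 50, 2311 and 105 against 72, 256 and 339 counts, and shares 385 bases of exon with ENSG00000282988. Without these 6 members, 18 of 53 tested (34%, beside 21.5% of all features) were lower and 1 higher (beside 22.1%), and 3 passed the fold threshold downward, beside 12%. Over the 67 members with an annotated transcript, uneven ones included, the longest run shared with another member was 56 bases at the median, and 18 members shared at least 100 bases. Among members that were called, the run was 167 bases in H3C13, 140 in H2BC18 and 104 in H2BC6, against 26 in H1-3, 56 in H2AC6 and 38 in H4C4.

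How many members were called depended on single libraries. Control 1 was the lowest control for 52 of the 59 tested members, and Sev 2 the lowest Sev library for 51. Without control 1, 26 of 59 members (44.1%) were lower, beside 16% of all features in the same fit. Without control 2, control 3 or Sev 2, 10 members each (16.9%) were lower, beside 17.8%, 15.6% and 19.3% of all features. Without Sev 1 there were 15 (25.4%, beside 15.8%) and without Sev 3 there were 11 (18.6%, beside 18.7%). The share of members lower was thus near that of all features in 4 of these 6 fits. H1-3, H2AC6, H2AC21, H2BC6, H2BC9, H3C3, H3C10 and H3C13 were lower in all 17 settings tried. H4C4 kept its call with any library left out and missed it in 1 other setting. H1-2, H1-5 and H3C7 lost theirs without control 2, control 3 or any Sev library, with adjusted p-values up to 0.111, 0.136 and 0.114. H3C4, H3C8 and H4C2 lost theirs without control 2, control 3, Sev 2 or Sev 3, with values up to 0.0825, 0.11 and 0.0871. H2AC11 lost its call without control 2, control 3 or Sev 2 (up to 0.0642), H2BC18 without control 2 or control 3 (up to 0.0787), and H3C11 without control 3, Sev 2 or Sev 3 (up to 0.0838). H2BC12 lost its call without control 1, control 3, Sev 1 or Sev 3, with adjusted p-values up to 0.146.

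Genes that act on histone mRNA moved in both directions, and calls in the lists stand beside 21.5% of all features lower and 22.1% higher. The list for 3′ end processing had 5 of 23 tested genes lower and 7 higher, with a median log2 fold change of -0.13. SLBP, which binds the stem-loop, had 1175, 1800 and 1627 counts in the control and 2240, 2305 and 2822 in the Sev libraries, all above the controls. SLBP rose by 0.85 on the log2 scale (SE 0.18, adjusted p = 0.00639). CASP8AP2 (FLASH), which recruits the cleavage factors, had 2201, 2381 and 2657 against 1119, 790 and 1630 counts. It fell by 0.86 on the log2 scale (SE 0.22, adjusted p = 0.0144), with separate groups, and the adjusted p-value was 0.0514 without Sev 1. The U7 proteins LSM10 and LSM11 and the zinc finger protein ZNF473 did not pass, with log2 fold changes of 0.23 ± 0.11, -0.17 ± 0.18 and 0.24 ± 0.18. The U7 RNA gene RNU7-1 was listed with 1 count in each library, too few to compare. Its FPKM ran from 0.00183 to 0.18, so the listed count may not stand for a whole read. In the transcription list, 2 of 14 were lower and 2 higher. NPAT, the coactivator of these genes, had 1467, 1947 and 1682 against 1179, 1077 and 1456 counts, with overlapping CPM and a log2 fold change of -0.29 ± 0.16 (adjusted p = 0.182). In the list for decay and translation, 4 of 19 were lower and 5 higher, and the 3′ exonuclease ERI1 did not pass (0.14 ± 0.28), though without control 1 it was higher by 0.55 (adjusted p = 0.0478) and without control 3 it stood at -0.12. The chaperone list had 4 of 23 lower and 5 higher, and IPO4, an importin of histones, rose from 19 ± 3.52 to 38.1 ± 3.46 CPM (SD, adjusted p = 0.00144 by edgeR).

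Genes for DNA replication were higher more often than lower, beside histone genes that were lower more often than higher. Of 40 S-phase genes tested, 16 were higher and 2 lower, with a median log2 fold change of 0.30. Of all features, 22.1% were higher and 21.5% lower. Control 1 was the lowest control for most of these genes, such as MCM2 (104 CPM, against 157 and 157), but not for PRIM1. A low control 1 raises such fold changes, and calls without it were not counted for this list. The list summed to 2778 to 3755 CPM in the control and 3899 to 4295 CPM in the Sev libraries. Subunits of the replicative helicase complex moved in both directions. GINS1 had 885, 1144 and 1160 against 452, 401 and 625 counts, and fell by 0.94 on the log2 scale (SE 0.18, adjusted p = 0.00468). GINS3 had 718, 1024 and 1106 against 1569, 1624 and 1854 counts, and rose from 21.9 ± 4.51 to 43.9 ± 2.64 CPM (SD, adjusted p = 0.00175 by edgeR). Whether the share of cells in S phase moved with the histone genes was not tested.

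Genes for histones that are made outside S phase or in other tissues were measured beside the members. H3-4, a testis H3, had 24, 38 and 42 counts in the control and 5, 7 and 5 in the Sev libraries, and fell by 2.40 on the log2 scale (SE 0.38, adjusted p = 0.00194). All Sev libraries lay below the controls. The linker histone H1-10 rose by 0.45 ± 0.11 (adjusted p = 0.0128), but its adjusted p-value was 0.081 when scaled to library size alone and up to 0.135 with limma on FPKM. The replacement histones H3-3A and H3-3B, with log2 fold changes of -0.10 ± 0.10 and -0.13 ± 0.09, did not pass, nor did H2AX (0.01 ± 0.13), H2AZ1 (0.20 ± 0.15), H2AZ2 (0.10 ± 0.07), MACROH2A1 (0.22 ± 0.09) and the centromere histone CENPA (-0.10 ± 0.11). H3-3B gained a call in 4 alternative settings and MACROH2A1 in 2. H2AJ had 0 counts in every control and at most 6 in a Sev library, and was not tested.

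Other short RNAs without a poly(A) tail were higher more often than lower in the same libraries. Of 33 tested, 17 were higher and 1 lower, beside 22.1% and 21.5% of all features, with a median log2 fold change of 0.58. RNU1-1, RNU1-2, RNU1-3 and RNU1-4, near-identical copies with similar counts, make up 4 of the 17. The summed level of the whole list, mostly from RN7SL1, RN7SL2, RMRP, RN7SK and RPPH1, was 34757 to 44922 CPM in the control and 39225 to 59684 CPM in the Sev libraries, with overlap. RNU4-1, a spliceosomal RNA, had 114, 83 and 100 against 190, 186 and 186 counts and rose by 1.10 ± 0.17 (adjusted p = 0.00198). RNY3 had 17, 12 and 18 against 33, 22 and 29 counts and was higher by 1.02 ± 0.31 (adjusted p = 0.0285), a call lost with any library but Sev 2 left out (adjusted p up to 0.105). The single fall was RNU5E-1, with 135, 130 and 113 counts in the control and 1 count in each Sev library (adjusted p = 4.6e-05). The part of RNA preparation in the histone values was not tested.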

How the data were processed

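Total RNA of U251 cells was depleted of ribosomal RNA and sequenced in paired ends with strand-specific adapters. The authors deposited counts per gene, and FPKM values of these genes. The counts are whole numbers but may not all be whole reads. RNU7-1 was listed with 1 count in each library while its FPKM ran from 0.00183 to 0.18. The submitters' processing notes name bcl2fastq 2.19, featureCounts and hg18. Aligner, annotation and counting settings are not given in the sources used here. Members were found by symbol for 67 genes. H2AC18 and H2AC19 were found through older names. The members and lists were chosen with earlier results of these data known. Positions are from GENCODE 29 (GRCh38), and no deposited coordinate was used. H3C2 and H3C3 have no entry there and were placed by RefSeq.

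Counts were filtered with filterByExpr, scaled by TMM and tested with the quasi-likelihood test of edgeR 4.0.16 in R 4.3.3, fitted on all 27514 features without covariates. Standard errors are the absolute log2 fold change over the square root of the F statistic. CPM values are TMM-scaled. Called by the adjusted p-value means Benjamini-Hochberg under 0.05 over all features, and by fold a log2 fold change past 1 or -1 with an unadjusted p-value under 0.05. With 3 libraries a group, the smallest exact permutation p-value is 0.1, so none was used. Labels do not say that libraries came from separate cultures, so the p-values measure the spread between these libraries. Over all tested features, same-numbered libraries did not deviate together (correlations of -0.01, 0.00 and 0.03). The labels do not say whether they were prepared together. Genes named by rule were, in each type, the 3 most abundant, the lowest and highest fold change, and members opposite to the calls. Other members are named because they were called, uneven, near the limit (H2BC10) or of changed share (H4C3), and GINS1 because it fell, all chosen after their values were seen. From the lists, preset genes and those past both limits were named. The result for 1 gene of these lists, and the counts that need it, are not reported here. The alternatives were DESeq2 1.42.0, its size factors, library size only, 2 other filters, the replicate block, removal of a gene length trend, limma 3.58.1 on log2(FPKM + 1) or log2(FPKM + 0.1), and each library left out. Leaving out uneven members and entering equal copies once were added after the data were seen. The models were tested on simulated data.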

Additional observations from a re-analysis of the deposited data

How the results depend on the processing

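Against 19 members lower and 1 higher by the adjusted p-value, the replicate block gave 11 lower (18.6% of members, beside 18.2% of all features) and 0 higher, and the block with the gene length trend removed gave 9 lower (15.3%, beside 17%) and 1 higher. With the length trend removed and no block, 13 members (22%) were lower, beside 19.9%. Same-numbered libraries did not deviate together over all features, though H4C14 was low in library 1 of both groups. Whether they share a preparation was not tested, so it is not known which of these fits applies. No member was higher (0) under library size only, without an expression filter, or under the 3 limma fits on FPKM. Leaving out 1 library at a time gave 10 to 26 lower and 0 to 2 higher, and 0 to 1 higher by the fold threshold. The H3C12 log2 fold change then ran from -8.04 to 1.38, the reversed value being without control replicate 2. The cause of these shifts was not tested, except that fewer libraries enter the fits that leave 1 out and that the H3C12 counts lie in control replicate 2. Over the other settings 13 to 24 members were lower. Of the values for the genes named by rule, leaving out members named only because they were called, 836 kept their side of the limit, though values that had not passed could change sign, 57 lost the call, 15 gained one and 1 reversed. Of 69 sums under alternatives, 66 were below 0 and the 3 above 0 were H2A sums. Precision rests on 3 libraries per group more than on depth, except for members with few counts, and counts shared between near-identical copies remain uncertain.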

Other observations

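Uneven replicates of the kind seen in H3C12 were also found in short RNA genes outside the histone genes, which were picked after their values were seen. RNU11 had 329, 8 and 11 counts in the control and 357, 9 and 353 in the Sev libraries. RNU12 had 0, 139 and 1 against 166, 2 and 1 counts, and SNORD118 had 1, 146 and 1 against 1, 183 and 1 counts. ENSG00000282988, the gene whose exons overlap H2AC7 and H3C4, had 385, 1035 and 640 counts in the control and 526, 1752 and 2325 in the Sev libraries.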
